A study of Mus musculus with 8 samples.

Results

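The 1732 loci described here were transcribed regions of the mouse genome that carried a provisional identifier, such as Mouse_newGene_8726, in the gene table of a kidney injury study. They were chosen by that identifier alone and made up 1732 of 21874 rows, beside 20142 rows with a gene identifier. Each row gave a chromosome, a start and end, a strand, a length and 8 expression values in FPKM, which scales fragments to transcript length and to the mapped fragments of the library. How the loci were assembled was not given in the sources used here. The study followed RNA from proximal tubules, the kidney segment that reabsorbs most of the filtrate, after cisplatin, a platinum drug that damages it. The tubules came from the renal cortex of male C57BL/6 mice. There were 4 groups of 2 libraries, labelled a and b, at 0, 24, 48 and 72 h, and the 0 h group was the control. The treatment field named the same intraperitoneal dose of 30 mg/kg for every sample, the 0 h samples included. Ribosomal RNA had been removed from total RNA, so transcripts without a poly(A) tail could be captured. The duplicates were described as biological but not tied to separate animals, and the p-values therefore reflect only how far these libraries spread, which may be technical.

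The tissue label was checked against marker genes. All 10 proximal tubule markers had a row, and their summed level was 5452 to 5941 FPKM at 0 h, 2198 to 2530 at 24 h, 1400 to 1465 at 48 h and 793 to 808 at 72 h. Markers of other cells were also present, and several moved with time. Slc12a1 of the thick ascending limb was at 191 to 195 FPKM at 0 h and 95.1 to 98.3 at 72 h. The 2 distal convoluted tubule markers summed to 252 to 269 at 0 h and 42.6 at 72 h. The 2 collecting duct principal cell markers summed to 59.4 to 69.1 and 152 to 163. The 3 podocyte markers summed to 20.6 to 24.3 and 42.9 to 44.3. Those of endothelium, also 3, summed to 36.9 to 39.2 and 65.4 to 69.0. The summed level of the 3 neutrophil markers was 0.888 to 1.03 FPKM at 0 h, 24.9 to 26.4 at 24 h, 22.9 to 27.7 at 48 h and 60.1 to 62.7 at 72 h. That of the 3 fibroblast markers was 22.6 to 25.4, 39.5 to 45.9, 56.9 to 58.9 and 85.2 to 89.5 at these times. At 24 h only Dcn of the 3 was higher, at 34.7 and 30.1 FPKM against 9.80 and 9.42 at 0 h. Col1a1 was lower at 24 h, at 7.69 and 5.50 against 10.3 and 9.87. Pdgfrb lay at 3.56 and 3.88 against 5.26 and 3.35. All 3 were higher at 72 h than at 0 h. At the 4 times, the 2 of 4 macrophage markers with a row summed to 8.59 to 9.37, 14.2 to 22.6, 20.1 to 20.9 and 39.3 to 39.6, and the 2 of 3 red cell markers with a row to 373 to 381, 204 to 234, 66.1 to 71.9 and 4.26 to 4.81. The macrophage sum was mostly C1qa, and Adgre1 lay at 0.193 to 1.08 FPKM in the 8 libraries. Of the 2 intercalated cell markers, Slc4a1 was at 6.93 and 6.69 FPKM at 0 h and 0.611 and 0.651 at 72 h. Atp6v1g3 was at 6.06 and 5.94 at 0 h and 7.06 and 6.80 at 72 h. No marker with a row was listed at 0. Of the 2 lymphocyte markers, Cd3e of T cells stayed at or below 0.183 FPKM, and the row of Cd79a of B cells, whose span of 4888691 bases reaches far past that gene, held 208 to 232 FPKM at 0 h, 310 to 442 at 24 h, 384 to 389 at 48 h and 514 to 530 at 72 h. In such bulk RNA, fewer cells of a type and less RNA per cell cannot be told apart, and the part of these markers in the changes below was not tested.

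A large share of the mammalian genome is transcribed into long noncoding RNAs, which are spliced like messenger RNAs and code for no known protein. Some of them serve mainly as hosts: small nucleolar RNAs (snoRNAs), which guide the chemical modification of ribosomal RNA, are cut from their introns, and many microRNAs (miRNAs), short RNAs that repress messenger RNAs through a seed sequence, are cut from their primary transcripts. Several snoRNA hosts start in a run of pyrimidines, the mark of genes whose RNAs follow the output of the translation machinery. Others, such as Malat1 and Neat1, stay in the nucleus, and hosts of miR-34a and miR-17 to miR-92a are known targets of p53 and Myc.

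Several of the loci that changed covered such known host genes, and the miRNAs they hold show which these are. Mature miRNA sequences are from RefSeq on build GRCm38.p6, are written 5′ to 3′, and carry the seed, bases 2 to 8, in capitals. The first 6 lie in 1 locus on chromosome 14, where miR-17-5p and miR-20a-5p share a seed and miR-19a-3p and miR-19b-3p share another. The next pair, from a locus on the X chromosome, shares a seed, as do the miR-29 pair and the miR-30 pair from loci on chromosome 1, and miR-34a-5p lies in a locus on chromosome 4.

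mmu-miR-17-5p: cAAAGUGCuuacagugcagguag

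mmu-miR-20a-5p: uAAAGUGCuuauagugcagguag

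mmu-miR-18a-5p: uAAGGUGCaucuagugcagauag

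mmu-miR-19a-3p: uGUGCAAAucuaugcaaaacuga

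mmu-miR-19b-3p: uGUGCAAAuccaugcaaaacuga

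mmu-miR-92a-3p: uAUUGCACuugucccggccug

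mmu-miR-221-3p: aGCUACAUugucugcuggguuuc

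mmu-miR-222-3p: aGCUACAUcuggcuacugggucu

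mmu-miR-29b-3p: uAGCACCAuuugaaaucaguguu

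mmu-miR-29c-3p: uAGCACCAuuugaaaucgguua

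mmu-miR-30a-5p: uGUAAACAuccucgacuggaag

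mmu-miR-30c-5p: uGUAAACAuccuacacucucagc

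mmu-miR-34a-5p: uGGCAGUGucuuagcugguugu

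For the snoRNA hosts the sequence around the annotated start is shown, 75 bases from RefSeq promoters of the same build, with the run of C and T letters over the start in capitals. They are Snhg12 at chr4:132308653-132308727 on the plus strand, Gas5 at chr1:161035141-161035215 on the plus strand, Snhg7 at chr2:26640195-26640269 on the minus strand, Snhg1 at chr19:8723462-8723536 on the plus strand, and, with no such run, Snhg17 at chr2:158361473-158361547 on the minus strand.

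Snhg12: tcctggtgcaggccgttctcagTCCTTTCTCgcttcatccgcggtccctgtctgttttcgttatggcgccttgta

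Gas5: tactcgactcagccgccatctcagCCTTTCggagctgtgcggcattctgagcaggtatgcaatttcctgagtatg

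Snhg7: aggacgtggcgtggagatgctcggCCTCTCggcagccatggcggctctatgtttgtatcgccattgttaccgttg

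Snhg1: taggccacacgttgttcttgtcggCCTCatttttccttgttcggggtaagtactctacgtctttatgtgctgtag

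Snhg17: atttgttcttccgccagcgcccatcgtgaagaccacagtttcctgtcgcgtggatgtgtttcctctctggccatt

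The run over the start was 9 bases long in Snhg12, 6 in Gas5 and Snhg7, and 4 in Snhg1, and absent in Snhg17, Snhg15, Dancr and 1110038B12Rik. A run of at least 6 bases lay over the start of 3 of these 8 hosts and of 7.25% of all 32851 promoters in the table. The annotated start lay 13 bases from the start of the locus in Snhg1, 269 in Gas5, 298 in Snhg7, 544 in Snhg12 and 1933 in Snhg17. A printed window therefore need not be the start of the transcript measured. A run of letters at an annotated start is a description of this window only.

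Most of the new loci overlapped genes that RefSeq already names, at least in part. Of the 1732 loci, 1287 (74.3%) overlapped the span of a RefSeq gene on GRCm38.p6, which has the coordinates of the mm10 build named in the submitters' processing notes. An overlap of any length counted, on either strand. Where it had to cover at least 50% of the locus, 642 loci (37.1%) met a gene on their own strand. Another 99 (5.72%) then met a gene on the opposite strand only, and 202 (11.7%) a gene of unlisted strand. In the gene table, 18372 of 21900 RefSeq protein-coding genes (83.9%) had a row, against 219 of 12731 lncRNA genes (1.72%) and none of 1340 snoRNA genes and 1228 miRNA genes. For 479 loci (27.7%) the overlap covered at least 50% of both the locus and the gene, and 383 of these genes were lncRNAs and 63 protein-coding. Such a close match left out genes on the opposite strand but kept genes of unlisted strand. In 451 of the 479 no row carried the symbol of the matched gene. Here and below, genes and rows were matched by symbol, which 19742 of the 20142 other rows had. A row under another symbol would be missed. A provisional name in this table was thus not by itself a sign that RefSeq names no gene in that place.

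By strand, 852 loci (49.2%) overlapped a gene on their own strand, which was an lncRNA in 582 and a protein-coding gene in 261. Another 123 (7.1%) overlapped a gene on the opposite strand only, and for 312 (18%) the strand of the overlapped gene was not in the tables used here. Outside every gene span, 72 (4.16%) started within 1 kb of the start of a gene that runs the other way, 76 lay within 5 kb downstream of a gene on its strand, 124 lay within 5 kb in another arrangement and 168 (9.7%) lay farther away. The remaining 5 were on an unplaced scaffold. Exons and introns could not be told apart, since the reference gives gene spans only.

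**Figure D1:**
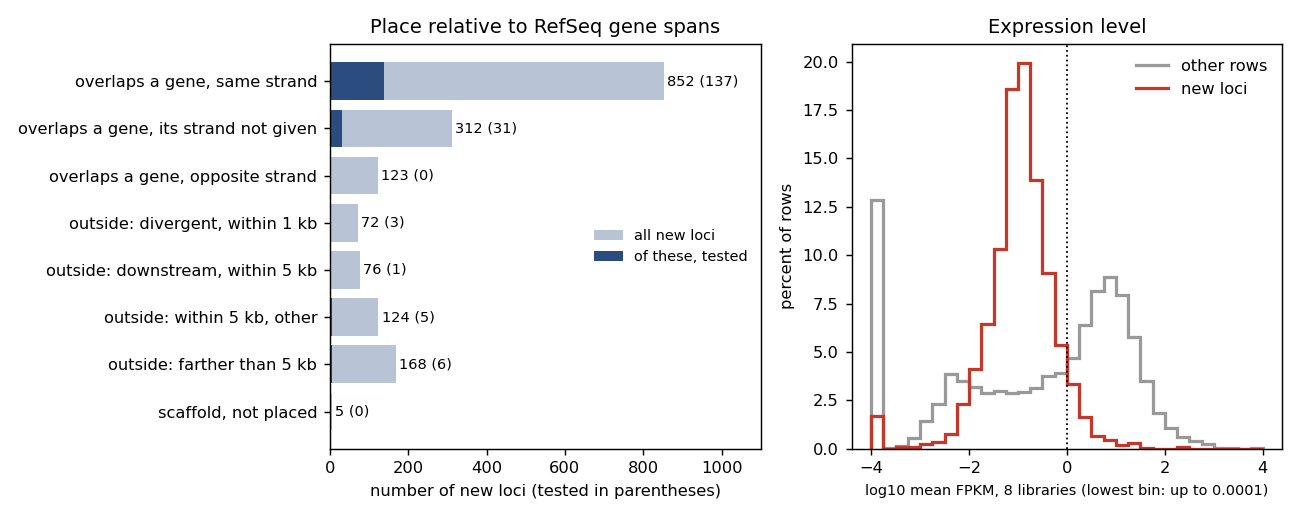
Left: number of new loci in each class of place relative to RefSeq gene spans, with the number tested for change in dark blue and in parentheses. Right: percent of rows by log10 of mean FPKM over the 8 libraries, for the 1732 new loci in red and the 20142 other rows in grey, with a dotted line at 1 FPKM. The same-strand class is the tallest with 852 loci, and most new loci lie left of the line.

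The loci were evenly placed on both strands, 863 on plus and 869 on minus. Their spans ran from 303 to 3749432 bases with a median of 6426.5, against 20653 for the other rows. In each of the 1732 the deposited length was below the span, and its median was 1183 bases against 3111 in the other rows. Long spans were a feature of some loci: 74 reached past 100000 bases and 8 past 1000000. The longest, Mouse_newGene_6383 at chr16:4880647-8630078, was not above 1 FPKM in more than 1 library and was not tested. Annotated rows of the same table were overlapped by 976 loci. Of these, 604 met a row on the same strand and 372 a row on the opposite strand only. A fragment in such a place could belong to either row. The strand setting of the counting was not given in the sources used here.

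New loci were weakly expressed. At least 1 FPKM was reached by 108 to 156 of them in a library (6.24% to 9.01%), against 47.6% to 50.7% of the other rows. As a group mean, 201 loci reached 1 FPKM at some time and 51 at all 4 times, with 117 at 0 h, 132 at 24 h, 124 at 48 h and 108 at 72 h. No library reached 1 FPKM in 1441 loci, and 12 were listed at 0 throughout. The share of all FPKM that fell in new loci was 0.226% and 0.237% in the 0 h libraries, 0.372% and 0.376% at 24 h, 0.377% and 0.393% at 48 h, then 0.296% and 0.299% at 72 h. The share was higher in every injured library than in both controls, also without the 2 most abundant loci, where it was 0.138% to 0.143% at 0 h, 0.249% to 0.258% at 24 h, 0.230% to 0.236% at 48 h and 0.164% to 0.175% at 72 h. Total FPKM was also lower in the injured libraries, 314173 to 375186 against 448667 and 452114 at 0 h, and depth cannot be read from FPKM. The summed FPKM of the new loci themselves was 1013 and 1073 in the 0 h pair, 1394 and 1313 at 24 h, 1183 and 1249 at 48 h, then 1039 and 1058 at 72 h, so the 72 h sums lay within the range of the controls. Without the 2 most abundant loci the 72 h sums, 575 and 621, stood beside 617 and 645 at 0 h.

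The most abundant new locus was Mouse_newGene_3577 at chr12:101965281-101975661 on the minus strand, over Ndufb1, a small subunit of mitochondrial complex I that had no row of its own. It held 231 and 224 FPKM in the 0 h pair, 337 and 279 at 24 h, 240 and 278 at 48 h, then 189 and 196 at 72 h. The 24 h libraries were the highest and did not overlap the controls, and the rise at 24 h was 0.43 on the log2 scale (SE 0.10, adjusted p = 0.00448). The 72 h libraries lay below the controls by 0.24 (adjusted p = 0.0583), and this sign was the opposite after quantile normalisation, 0.29 with an adjusted p of 0.00992. The next was Mouse_newGene_134 at chr1:72226105-72244378 on the plus strand, in the lncRNA D230017M19Rik, at 166 and 204 FPKM in the 0 h pair, 87.5 and 164 at 24 h, 219 and 220 at 48 h, then 275 and 241 at 72 h. Its libraries at 24, 48 and 72 h did not overlap the controls, yet none of the 3 differences passed the test.

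Among the most abundant loci was also Mouse_newGene_8946 at chr19:5806825-5845943 on the minus strand, over Neat1, the scaffold RNA of nuclear paraspeckles, whose strand was not listed. It held 16.2 and 16.9 FPKM in the 0 h pair, 31.5 and 35.9 at 24 h, 18 and 23.9 at 48 h, then 13.8 and 11.8 at 72 h. The locus was therefore highest at 24 h, where it rose by 0.98 (SE 0.13, adjusted p = 0.000216), and it was lower at 72 h than at 48 h by 0.66 (adjusted p = 0.00394). Its lower level at 72 h than at 0 h, a change of -0.35 with an adjusted p of 0.0419, lost the call without 0 h library a (0.103), 0 h library b (0.147) or 72 h library b (0.224). Tug1, an lncRNA that acts in chromatin repression, was at 6.17 to 19.1 FPKM in the 8 libraries and passed no test (Mouse_newGene_2451, chr11:3633076-3649106). Firre, an X-linked lncRNA of nuclear architecture, was at 4.96 to 9.28 FPKM and passed none either (Mouse_newGene_18190, chrX:50555750-50635355).

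The filter of at least 1 FPKM in at least 2 libraries left 183 new loci for the test of change, out of 10757 rows tested. By place, 137 of them overlapped a gene on the same strand, 31 a gene of unlisted strand, none a gene on the opposite strand only, and 15 lay outside every gene. Those nearest the limit were over A1cf and 9530062K07Rik inside it, with a second-highest library of 1.01 and 1.02 FPKM, and over Gm30536 and 4931408D14Rik outside it, at 0.997 and 0.995. A locus that passed through a high group alone had to differ: 15 of the 183 (8.20%) reached 1 FPKM at only 1 time, against 3.37% of all tested rows, and 42 (23.0%) reached it in all 8 libraries, against 82.0%. The tested new loci had a median mean level of 1.23 FPKM against 7.17 for all tested rows, and a median SE of 0.17 against 0.10 on the log2 scale. Loci below 1 FPKM in both 0 h libraries entered the test through injured libraries alone. A level above 0 h at some time was thus built in for them. Of the risers named below this holds for Snhg15, Mir17hg, Gm52791, Gm21154, Gm41537, Gm32357, the Rps12 locus and the loci of miR-34a and miR-30a. It also holds for Mouse_newGene_8917, Mouse_newGene_4203, Mouse_newGene_17353, Mouse_newGene_8877, Mouse_newGene_1975 and Mouse_newGene_3608. Counts over these 183 are descriptions.

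At 24 h, 90 of the 183 new loci passed the test against 0 h, against 65.8% of all tested rows. Of these 54 were higher and 36 lower, where the same shares over all rows were 25.8% higher and 40% lower. At 48 h, 94 passed, 53 higher and 41 lower, against a background of 70.5% (28.5% higher and 42.1% lower). At 72 h, 95 passed, 48 higher and 47 lower, against 70% (37.6% and 32.4%). A change of at least 2-fold was called in 34 loci at 24 h, 42 at 48 h and 51 at 72 h, where the background was 14.7%, 21.9% and 23.1%. The libraries of both groups did not overlap in 119 loci at 24 h, 135 at 48 h and 142 at 72 h, where the background was 81.8%, 86.4% and 86.6%. The 3 comparisons share the 0 h libraries. The direction counts moved with the scaling: with the same total FPKM in every library and mt-Co1 left out, a setting chosen after seeing the data, the split of higher and lower was 63 and 23 at 24 h, 77 and 23 at 48 h, then 64 and 34 at 72 h. After quantile normalisation it was 28 and 64 at 72 h. Without 0 h library a or b, the loci called lower at 24 h numbered 20 or 18, and without 0 h library b those called lower at 48 h numbered 26.

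**Figure D2:**
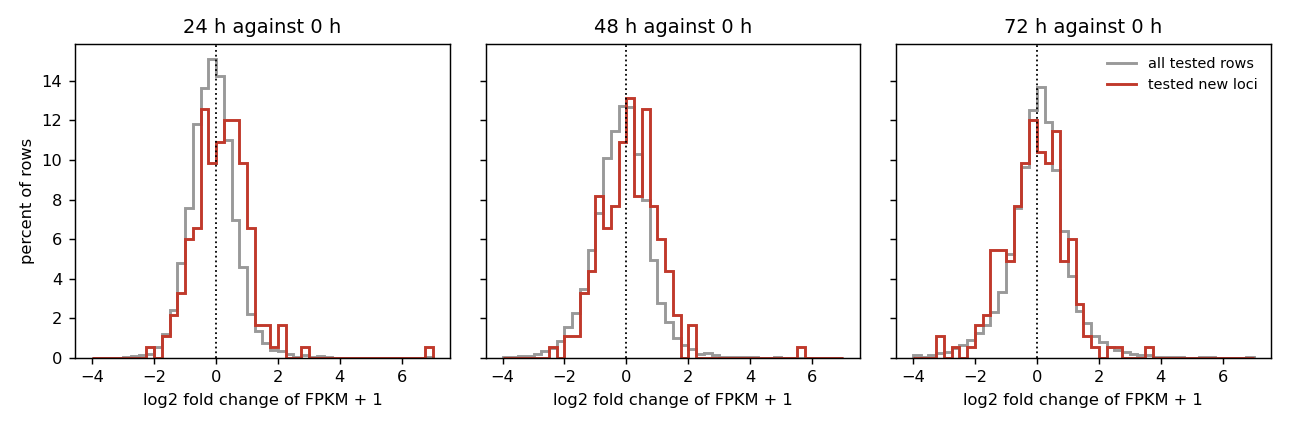
Percent of rows by log2 fold change of FPKM + 1 against 0 h, in bins of 0.25, for the 183 tested new loci in red and all 10757 tested rows in grey, at 24, 48 and 72 h. The new loci have medians of 0.14, 0.13 and -0.04 against -0.12, -0.13 and 0.07.

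The median log2 fold change of the tested new loci was 0.14 at 24 h, 0.13 at 48 h and -0.04 at 72 h, beside -0.12, -0.13 and 0.07 over all tested rows. With equal totals the median over all rows became 0.08, 0.24 and 0.36. Between successive times, 28 loci passed from 24 to 48 h (12 higher, 16 lower) against a background of 28.3%, and 58 from 48 to 72 h (16 higher, 42 lower) against 48.4%, where 37.2% of all rows were higher and 11.3% lower. With the same median in every library the split from 48 to 72 h was 8 higher and 76 lower, after quantile normalisation it was 9 and 70, and without 72 h library b 7 were higher. With equal totals the split from 24 to 48 h was 24 higher and 14 lower, and without 48 h library b 10 were lower. By mean level, 48 (26.2%) of the tested new loci were highest at 24 h and 41 (22.4%) at 48 h, where 13.7% and 9.66% of all tested rows were. The highest level at 72 h was found in 34 (18.6%), against 36.4% of all rows.

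Several loci over snoRNA genes were higher at 24 h. Of 20 loci that hold a snoRNA gene and span at most 100000 bases, 9 were tested, and 6 rose and none fell at 24 h, with a median log2 fold change of 1.17. At 48 h 5 rose and 1 fell (median 0.55), and at 72 h 4 rose and none fell (median 0.33). Over all tested rows 25.8% were called higher and 40% lower at 24 h, 28.5% and 42.1% at 48 h, then 37.6% and 32.4% at 72 h, with medians of -0.12, -0.13 and 0.07. This list was drawn up after the values were seen, and Gas5, Snhg17, Snhg15 and the Rps12 locus were chosen after their values were seen. Snhg15 and the Rps12 locus were tested through injured libraries alone, so a higher level than at 0 h at some time was built in.

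The clearest rise was in Snhg1, host of 8 snoRNA genes, as Mouse_newGene_8726 at chr19:8723474-8727443 on the plus strand. It held 3.51 and 3.17 FPKM in the 0 h pair, 27.8 and 31.2 at 24 h, 18.8 and 18.4 at 48 h, then 9.55 and 10.4 at 72 h. All 6 injured libraries lay above both controls and the 4 groups did not overlap. Snhg1 rose by 2.81 (SE 0.09, adjusted p = 8.7e-08) at 24 h, 2.18 (adjusted p = 1.01e-07) at 48 h and 1.34 (adjusted p = 1.37e-06) at 72 h, and fell from 24 to 48 h and from 48 to 72 h. It lies inside the row of Slc22a6, the organic anion transporter OAT1, whose row is far longer than its gene and fell by 1.29 at 24 h and 2.20 at 72 h on the same strand.

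Gas5, an lncRNA that also binds the glucocorticoid receptor, held 3.37 and 3.39 FPKM in the 0 h pair, 7.19 and 7.38 at 24 h, 5.18 and 5.63 at 48 h, then 3.76 and 5.36 at 72 h (Mouse_newGene_335, chr1:161034897-161038889, plus strand). It rose by 0.92 at 24 h (SE 0.13, adjusted p = 0.000238) and 0.55 at 48 h, and its call at 72 h, 0.33 with an adjusted p of 0.047, was lost when any of 7 libraries was left out: adjusted p was 0.129 without 0 h library a, 0.122 without 0 h library b, 0.0611 and 0.0615 without 24 h library a and b, 0.0633 and 0.0635 without 48 h library a and b, and 0.375 without 72 h library b. Snhg17 held 1.86 and 1.99 FPKM in the 0 h pair, 9.02 and 6.14 at 24 h, 5.96 and 5.23 at 48 h, then 4.94 and 4.99 at 72 h (Mouse_newGene_10209, chr2:158353182-158363455, minus strand). It rose at all 3 times, by 1.53, 1.17 and 1.03. Snhg15 stayed at one raised level, from 0.218 and 0.293 FPKM at 0 h to 1.48 to 1.87 in the 6 injured libraries, and rose by 1.11, 1.04 and 1.16 (Mouse_newGene_2466, chr11:6521809-6529799, minus strand). It was tested through the injured libraries alone, so it had to be higher after 0 h.

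The locus over 1110038B12Rik, which holds Snord52, was at 6.45 and 2.55 FPKM in the 0 h pair, 16.2 and 18.7 at 24 h, 11.0 and 10.3 at 48 h, then 7.62 and 6.08 at 72 h (Mouse_newGene_7794, chr17:34948251-34952667, minus strand). It rose by 1.84 at 24 h (SE 0.35, adjusted p = 0.00588). Its rise at 48 h, 1.18 with an adjusted p of 0.0285, gave an adjusted p of 0.0514 to 0.101 without any 1 of the 24, 48 and 72 h libraries, and a change of 0.64 without 0 h library b. The Rps12 locus, at chr10:23776912-23788361 on the minus strand and with 3 snoRNA genes, held 0.465 and 0.773 FPKM in the 0 h pair, 2.66 and 2.59 at 24 h, 0.850 and 1.22 at 48 h, then 0.171 and 0.872 at 72 h (Mouse_newGene_1506). It rose at 24 h by 1.17 (adjusted p = 0.00148) and passed neither later test against 0 h, while the row of Rps12, a ribosomal protein gene on the same strand, rose at all 3 times, by 1.32, 1.37 and 1.75.

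The other 3 snoRNA hosts differed between the libraries of a pair. Snhg12 was at 65.5 FPKM in 24 h library a and 20.5 in 24 h library b, and at 10.5 to 17.9 in the other 6 libraries (Mouse_newGene_11984, chr4:132308134-132311159, plus strand). Dancr, which holds Snora26, was at 53.1 and 17.9 FPKM at 24 h and 10.9 to 25 elsewhere (Mouse_newGene_12931, chr5:74092941-74107156, plus strand). Neither passed a test at any time. Snhg7 held 11.6 and 17.2 FPKM in the 0 h pair, 27.5 and 15.8 at 24 h, 7.11 and 6.17 at 48 h, then 9.73 and 8.25 at 72 h (Mouse_newGene_9885, chr2:26636652-26640542, minus strand). It fell from 24 to 48 h by 1.52 (adjusted p = 0.015), a call lost without 48 h library a (0.0603) or b (0.0781), and was lower at 48 h than at 0 h by 0.99 (adjusted p = 0.0256), a call lost without 0 h library b (0.102), 48 h library a (0.0674) or 48 h library b (0.107). In all 3, library a was the higher of the 24 h pair.

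**Figure D3:**
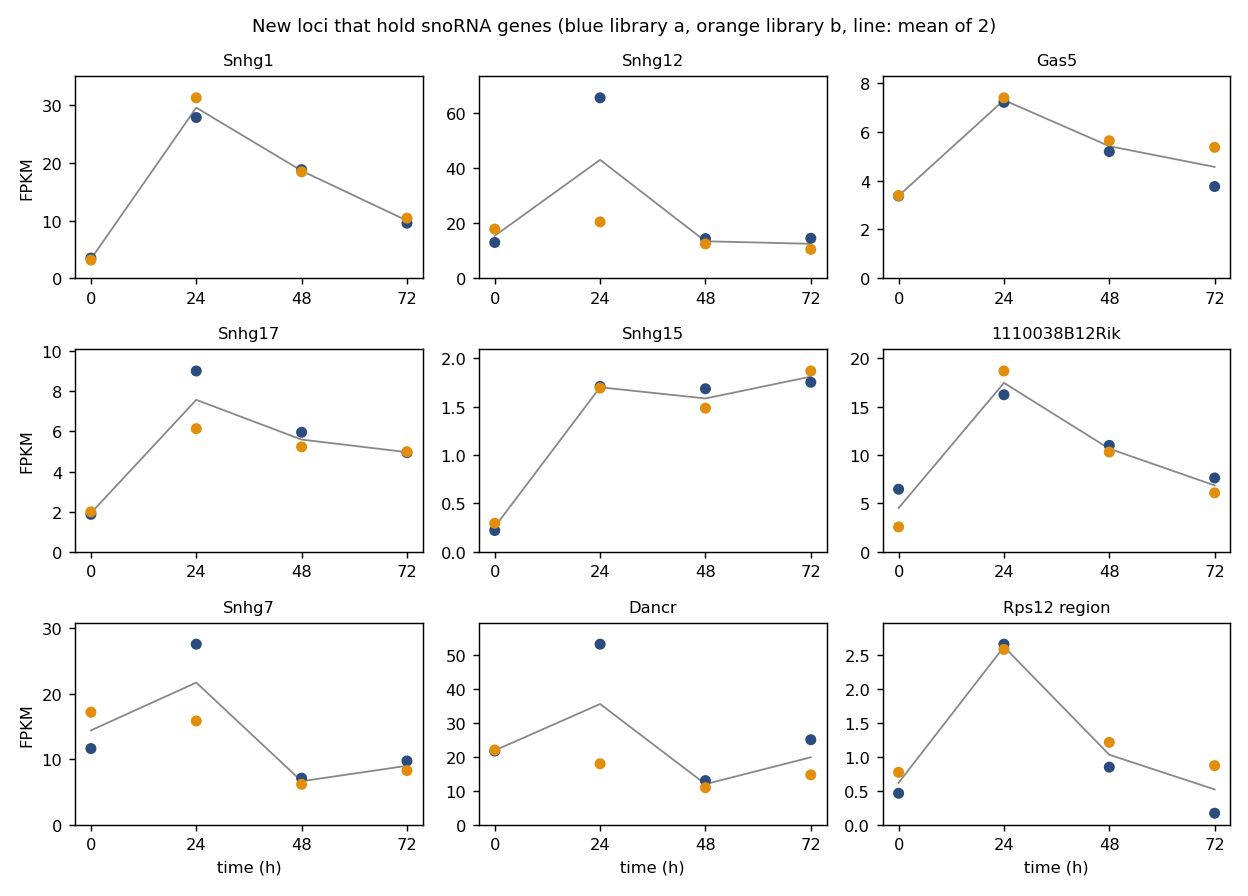
FPKM of the 9 tested new loci that hold snoRNA genes, against hours, with library a in blue, library b in orange and a line through the mean of each pair; each vertical axis starts at 0 and has its own range. Snhg1 goes from 3.17 and 3.51 FPKM at 0 h to 27.8 and 31.2 at 24 h, and Snhg12 and Dancr have 1 high library at 24 h.

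Loci over miRNA genes on their strand also included several that were higher after cisplatin. Of 25 that span at most 100000 bases, 11 were tested, and 7 rose and none fell at 24 h (median log2 fold change 1.08), 7 rose and none fell at 48 h (0.59), and 5 rose and none fell at 72 h (0.47). The shares over all tested rows were 25.8% higher and 40% lower at 24 h, 28.5% and 42.1% at 48 h, then 37.6% and 32.4% at 72 h. These are long primary transcripts, whose FPKM does not give the level of the mature miRNA, and the kit named in the labels is one for small RNA libraries. This list too was drawn up after the values were seen. Mir17hg and the loci of miR-34a and miR-30a were tested through injured libraries alone, so a higher level than at 0 h at some time was built in.

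The locus of the miR-17 to miR-92a cluster, Mir17hg, held 0.761 and 0.441 FPKM in the 0 h pair, 6.28 and 6.71 at 24 h, 3.50 and 3.36 at 48 h, then 2.23 and 1.38 at 72 h (Mouse_newGene_5063, chr14:115040855-115057159, plus strand). The 4 groups did not overlap. It rose by 2.23 at 24 h (SE 0.15, adjusted p = 3.74e-06), 1.48 at 48 h and 0.80 at 72 h, and fell at each later step. All 6 mature sequences printed for it come from this 1 transcript. The X-linked locus of miR-221 and miR-222, which repress the cell cycle inhibitor Cdkn1b, held 0.376 and 1.28 FPKM in the 0 h pair, 7.52 and 6.15 at 24 h, 3.88 and 5.81 at 48 h, then 2.41 and 4.40 at 72 h (Mouse_newGene_18155, chrX:19144537-19237891, minus strand, lncRNA Gm14636). It rose by 2.14 at 24 h (SE 0.34, adjusted p = 0.00205) and 1.70 at 48 h. Its rise of 1.28 at 72 h (adjusted p = 0.0162) was not called without 0 h library a (0.0536) or 72 h library b (0.0663).

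The locus of miR-34a, a direct target of p53 that represses cell cycle genes, held 0.283 and 0.113 FPKM in the 0 h pair, 2.03 and 1.49 at 24 h, 1.31 and 1.62 at 48 h, then 1.5 and 1.53 at 72 h (Mouse_newGene_12081, chr4:150047467-150071774, plus strand, lncRNA Gm13067). All injured libraries lay above both controls. It rose by 1.2, 1.04 and 1.07 (SE 0.13, largest adjusted p = 8.72e-05). The locus of miR-29b-2 and miR-29c, repressors of collagen messages, held 1.22 and 1.90 FPKM in the 0 h pair, 7.02 and 4.66 at 24 h, 2.32 and 3.35 at 48 h, then 2.97 and 3.34 at 72 h (Mouse_newGene_432, chr1:194976063-195041036, plus strand). It rose by 1.41 at 24 h (SE 0.21, adjusted p = 0.000479). Its call at 48 h, 0.58, was lost without 0 h library a (0.194), 48 h library b (0.191), 72 h library a (0.0558) or 72 h library b (0.0552), and that at 72 h, 0.71, without 0 h library a (0.0985) or 72 h library b (0.0828). Both of these loci, like Dleu2, Mir22hg, Lncpint, Tug1 and Firre, were chosen after their values were seen.

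The locus of miR-30a and miR-30c-2, from a family abundant in kidney, had the greatest deposited length of all 1732, 22823 bases. It held 0.944 and 0.715 FPKM in the 0 h pair, 2.73 and 3.01 at 24 h, 1.84 and 1.66 at 48 h, then 0.855 and 1.31 at 72 h (Mouse_newGene_36, chr1:23256245-23293703, plus strand). It rose by 1.08 at 24 h (SE 0.13, adjusted p = 8.45e-05) and 0.59 at 48 h (adjusted p = 0.00276), and its change of 0.18 at 72 h did not pass. Dleu2, host of miR-15a and miR-16-1, was at 1.21 to 2.88 FPKM in the 8 libraries and passed no test (Mouse_newGene_5240, chr14:61621627-61682417, minus strand). Mir22hg, host of miR-22, held 4.44 and 4.52 FPKM in the 0 h pair, 11.7 and 18.7 at 24 h, 11.8 and 14.2 at 48 h, then 4.91 and 5.33 at 72 h (Mouse_newGene_2196, chr11:75459499-75467456, plus strand). It rose by 1.53 at 24 h and 1.35 at 48 h, and its change at 72 h, 0.16, did not pass.

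**Figure D4:**
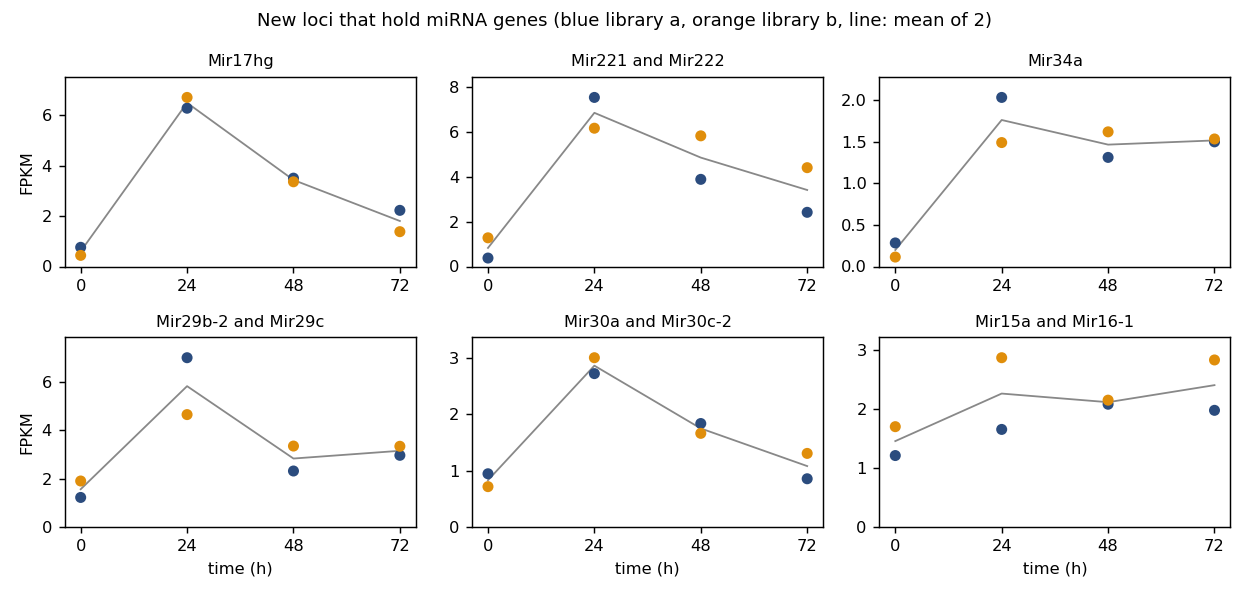
FPKM of 6 new loci that hold miRNA genes, against hours, with library a in blue, library b in orange and a line through the mean of each pair; each vertical axis starts at 0 and has its own range. The Mir17hg, Mir29 and Mir30 loci are highest at 24 h, and the Mir34a locus stays between 1.31 and 2.03 FPKM from 24 h on.

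The largest log2 change of all tested new loci was in Mouse_newGene_8917 on the minus strand, whose span, chr19:5791008-8692278, takes in 2901271 bases, 78 protein-coding genes and the whole of Malat1, a nuclear lncRNA with no row in the table. The whole of Neat1 lies in this span too, and the locus over Neat1, Mouse_newGene_8946, also on the minus strand, was likewise highest at 24 h. The deposited length of Mouse_newGene_8917 was 1012 bases. It was listed at 0.00104 and 8.56e-180 FPKM in the 0 h pair, 90.2 and 141 at 24 h, 36.2 and 72.9 at 48 h, then 3.73 and 7.85 at 72 h. The 4 groups did not overlap. On the log2(FPKM + 1) scale it rose by 6.83 (SE 0.49, adjusted p = 0.0002), 5.71 and 2.69, values that rest on the constant added to a control level near 0, and the call at 72 h was lost with a constant of 5 (adjusted p = 0.0679). Its lower end lay 4682 bases beyond Malat1 and its upper end between Chrm1 and Slc3a2, while the row of Slc3a2, a subunit of amino acid transporters, spanned nearly the same bases and changed by 0.01 at 24 h (adjusted p = 0.926). FPKM cannot say which bases of such a span were covered.

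Some loci stood in for protein-coding genes without a row. Of 36 that matched such a gene closely, 12 were tested, and 4 rose and none fell at 24 h, 2 and none at 48 h, and 5 and none at 72 h, with medians of 0.36, 0.19 and 0.46. Beside the 25.8%, 28.5% and 37.6% of all tested rows that were higher at these times, the counts of rises were near or below the background. D17H6S56E-5, a gene of the major histocompatibility region, had the largest log2 rise at 72 h of the tested new loci. It held 0.682 and 1.11 FPKM in the 0 h pair, 3.83 and 3.88 at 24 h, 7.03 and 7.59 at 48 h, then 20.4 and 20.8 at 72 h (Mouse_newGene_7799, chr17:34993676-35000350, minus strand). The groups did not overlap and each step passed, with rises of 1.37, 2.14 and 3.52 over 0 h (SE 0.11, adjusted p = 1.67e-08 at 72 h). Gm21154 was flat at first, with 0.427 and 0.226 FPKM at 0 h and 0.219 and 0.254 at 24 h, then 1.19 and 0.761 at 48 h and 5.55 and 6.03 at 72 h (Mouse_newGene_4865, chr14:43531802-43533135, plus strand). It rose by 0.57 at 48 h and 2.36 at 72 h (adjusted p = 4.34e-07).

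Other risers lay beside or inside annotated genes. Mouse_newGene_530 has the same start and end, chr1:51456158-51513186 on the minus strand, as the row of Nabp1, a single-stranded DNA binding protein of DNA repair, and 1 other new locus also shared both ends with an annotated row. It held 1.33 and 1.35 FPKM in the 0 h pair, 8.86 and 8.37 at 24 h, 9.45 and 9.05 at 48 h, then 6.62 and 5.82 at 72 h. It rose by 2.04, 2.13 and 1.62 (SE 0.09), and the Nabp1 row, at 12.9 and 14.1 FPKM at 0 h, by 2.0, 2.01 and 1.21. Mouse_newGene_4203, in the lncRNA 1700016G22Rik at chr13:5824399-5860080 on the minus strand, overlapped the row of Klf6 on the opposite strand by 1362 bases. It was listed at 0 and 0.013 FPKM at 0 h and held 1.17 and 1.41 at 24 h, 2.15 and 2.32 at 48 h, then 1.11 and 1.14 at 72 h. It rose by 1.18, 1.68 and 1.08, while Klf6, a zinc finger factor of the injury response, rose by 2.95, 2.74 and 2.66. Gm52791 went from 0.268 and 0.129 FPKM at 0 h to 2.17 to 3.75 in the injured libraries and rose by 1.63, 1.57 and 1.94 (Mouse_newGene_13681, chr5:137346996-137348066, minus strand). Mouse_newGene_4203 and Gm52791 were tested through injured libraries alone, so they had to be higher after 0 h.

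The locus over Lncpint, an lncRNA known as a p53 target, spans 164566 bases (Mouse_newGene_14458, chr6:31056432-31220997, minus strand). The genes of miR-29a and miR-29b-1 lie within that span, and miR-29a also lies in another new locus on the minus strand, Mouse_newGene_14460. Whether they belong to the Lncpint transcript was not tested. Mouse_newGene_14458 held 5.89 and 5.32 FPKM in the 0 h pair, 9.21 and 8.45 at 24 h, 6.53 and 7.96 at 48 h, then 8.36 and 9.06 at 72 h. It rose by 0.57 at 24 h and 0.56 at 72 h (SE 0.11, adjusted p = 0.00124 and 0.00129), and its call at 48 h, 0.32, was lost without 0 h library b (0.13) or 48 h library b (0.182). The p53 half-site was searched on both strands in the 58 RefSeq promoters of lncRNAs closely matched by a tested locus, 21 of which start within 100 bases of the start of the locus. It was found in 4 of the 58, against 8.36% of all promoters, and not in the window of Lncpint, which lies 2523 bases from the start of its locus.

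Over all 383 loci that matched a RefSeq lncRNA closely, 67 were tested, and 17 rose and 16 fell at 24 h, 18 and 19 at 48 h, then 15 and 23 at 72 h, with medians of 0.03, -0.06 and -0.28. Over all tested rows 25.8% were higher and 40% lower at 24 h, 28.5% and 42.1% at 48 h, then 37.6% and 32.4% at 72 h. The strands of the lncRNAs Gm41537 and Gm32357 were not listed, so the loci over them may run with or against the gene. The locus over Gm41537 was highest at 48 h (Mouse_newGene_7288, chr17:17491663-17519013, plus strand). It held 0.0225 and 0.00257 FPKM in the 0 h pair, 0.367 and 0.489 at 24 h, 1.89 and 2.48 at 48 h, then 1.28 and 0.626 at 72 h. It rose by 1.65 at 48 h (adjusted p = 1.93e-05) and 0.93 at 72 h, and its call at 24 h, 0.49 (adjusted p = 0.0239), was lost without 0 h library a (0.0781), 0 h library b (0.0932) or 24 h library b (0.108). The locus over Gm32357 held 1.27 and 3.52 FPKM at 72 h, and the other 6 libraries lay between 0.0257 and 1.16 (Mouse_newGene_6964, chr16:86234975-86347221, minus strand). Its rise of 1.51 at 72 h (adjusted p = 0.0113) was not called without 0 h library b (0.0537).

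Losses were steady in several loci that were high in uninjured tubules. Mouse_newGene_15247 on the plus strand, with a span of 703903 bases at chr7:89426257-90130159 inside the row of Me3, a mitochondrial malic enzyme, held 34.5 and 33.0 FPKM in the 0 h pair, 29.7 and 24.9 at 24 h, 12.6 and 12.7 at 48 h, then 3.29 and 3.35 at 72 h. The groups did not overlap, and it fell by 1.35 at 48 h and by 3.01 at 72 h (SE 0.09, adjusted p = 1.22e-08). Its call at 24 h, -0.30 with an adjusted p of 0.0163, was lost without 0 h library a (0.085) or 24 h library b (0.093, with a change of -0.18), and gave 0.0738 with equal medians and 0.558 with equal totals. The Me3 row rose by 0.29 at 72 h (adjusted p = 0.00388) on the same strand. The deposited length of Mouse_newGene_15247 was 8091 bases, and its span also reaches over Eed, where a circRNA lies at chr7:89955531-89962361. FPKM cannot say which bases of the span, or of which gene, were covered. Another locus lay over the transcribed pseudogene Gm6300, whose strand was not listed (Mouse_newGene_10511, chr3:14360821-14377861, plus strand). It held 12.1 and 11.9 FPKM in the 0 h pair, 3.87 and 2.13 at 24 h, 1.46 and 1.88 at 48 h, then 0.308 and 0.857 at 72 h, and fell by 1.74, 2.29 and 3.06.

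The lncRNA BC024386, within the row of Nlrp6, held 16.2 and 16.8 FPKM in the 0 h pair, 12.4 and 7.15 at 24 h, 8.54 and 5.93 at 48 h, then 2.45 and 1.32 at 72 h (Mouse_newGene_15398, chr7:140906006-140920847, plus strand). It fell by 2.63 at 72 h (SE 0.31, adjusted p = 0.000556), and its call at 48 h, -1.10, was lost without 0 h library a (0.0771), 0 h library b (0.0876) or 48 h library b (0.0916). The row of Nlrp6, an innate immune sensor, fell by 0.81 at 48 h and 1.52 at 72 h. Sephs2, the selenophosphate synthetase of selenoprotein production, was covered by Mouse_newGene_15867 at chr7:127266998-127275464 on the minus strand. That locus held 4.43 and 4.64 FPKM in the 0 h pair, 0.593 and 0.0219 at 24 h, 0.270 and 0.566 at 48 h, then 1.06 and 0.889 at 72 h, and fell by 2.12, 1.97 and 1.49, the last a call lost with a constant of 0.1 (adjusted p = 0.0628). The row of Dctpp1, which it overlaps, rose by 0.52 at 72 h.

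Gm32461 was lowest at 24 h, with 15.6 and 12.1 FPKM in the 0 h pair, 4.47 and 4.21 at 24 h, 7.22 and 9.40 at 48 h, then 11.2 and 10.2 at 72 h (Mouse_newGene_6978, chr16:86768298-86808961, minus strand). It fell by 1.47 at 24 h (SE 0.14, adjusted p = 2.34e-05) and rose from 24 to 48 h by 0.79 (adjusted p = 0.00405). Its lower level at 48 h than at 0 h, -0.68, gave an adjusted p of 0.117 with equal totals. The locus over the pseudogene Gm13836 had wide pairs at 24 and 72 h, with 40.6 and 44.7 FPKM in the 0 h pair, 15.6 and 9.94 at 24 h, 10.5 and 10.3 at 48 h, then 29.0 and 71.8 at 72 h (Mouse_newGene_13077, chr5:115489430-115496782, plus strand). It fell by 1.69 at 24 h (SE 0.47, adjusted p = 0.0279) and by 1.94 at 48 h (adjusted p = 0.0166). The first call was lost without 0 h library a (0.093), 0 h library b (0.111) or 24 h library b (0.113), and the second without 0 h library a (0.0638), 0 h library b (0.076), 48 h library a (0.0522) or 48 h library b (0.0532). Its rise from 48 to 72 h, 2.04, was lost without 48 h library a (0.0686) or b (0.0719).

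Among weaker loci, 3110045C21Rik went from 2.67 and 3.59 FPKM at 0 h to 0.179 to 0.511 later (Mouse_newGene_353, chr1:169969407-169971091, plus strand), with log2 differences from 0 h of -1.46, -1.5 and -1.76. It reached 1 FPKM only at 0 h and was tested through that group alone, so it had to be lower later. D630024D03Rik went from 3.23 and 5.02 FPKM to 0.234 to 1.65 (Mouse_newGene_2534, chr11:31749989-31825330, minus strand) and fell by 1.29, 1.73 and 2.01. The neighbouring loci over Gm15348 and Gm39133 on chromosome 8 fell by 1.97 and 1.79 at 72 h (Mouse_newGene_16437, chr8:12685424-12720849; Mouse_newGene_16107, chr8:12749227-12753458). Gm39133 lies inside the row of Atp11a, which fell by 2.06. The locus over 2500002B13Rik was likewise tested through its 0 h libraries alone, at 2.79 and 2.44 FPKM against 0.073 to 0.892 later (Mouse_newGene_16221, chr8:57491403-57520592). The overlapping row of Hmgb2, a chromatin protein of dividing cells, rose by 1.11, 1.55 and 1.49. A short model inside Ripor3 fell by 1.31 at 24 h and 1.21 at 48 h, and the Ripor3 row by 1.0 and 1.19 (Mouse_newGene_10268, chr2:168022478-168050470).

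**Figure D5:**
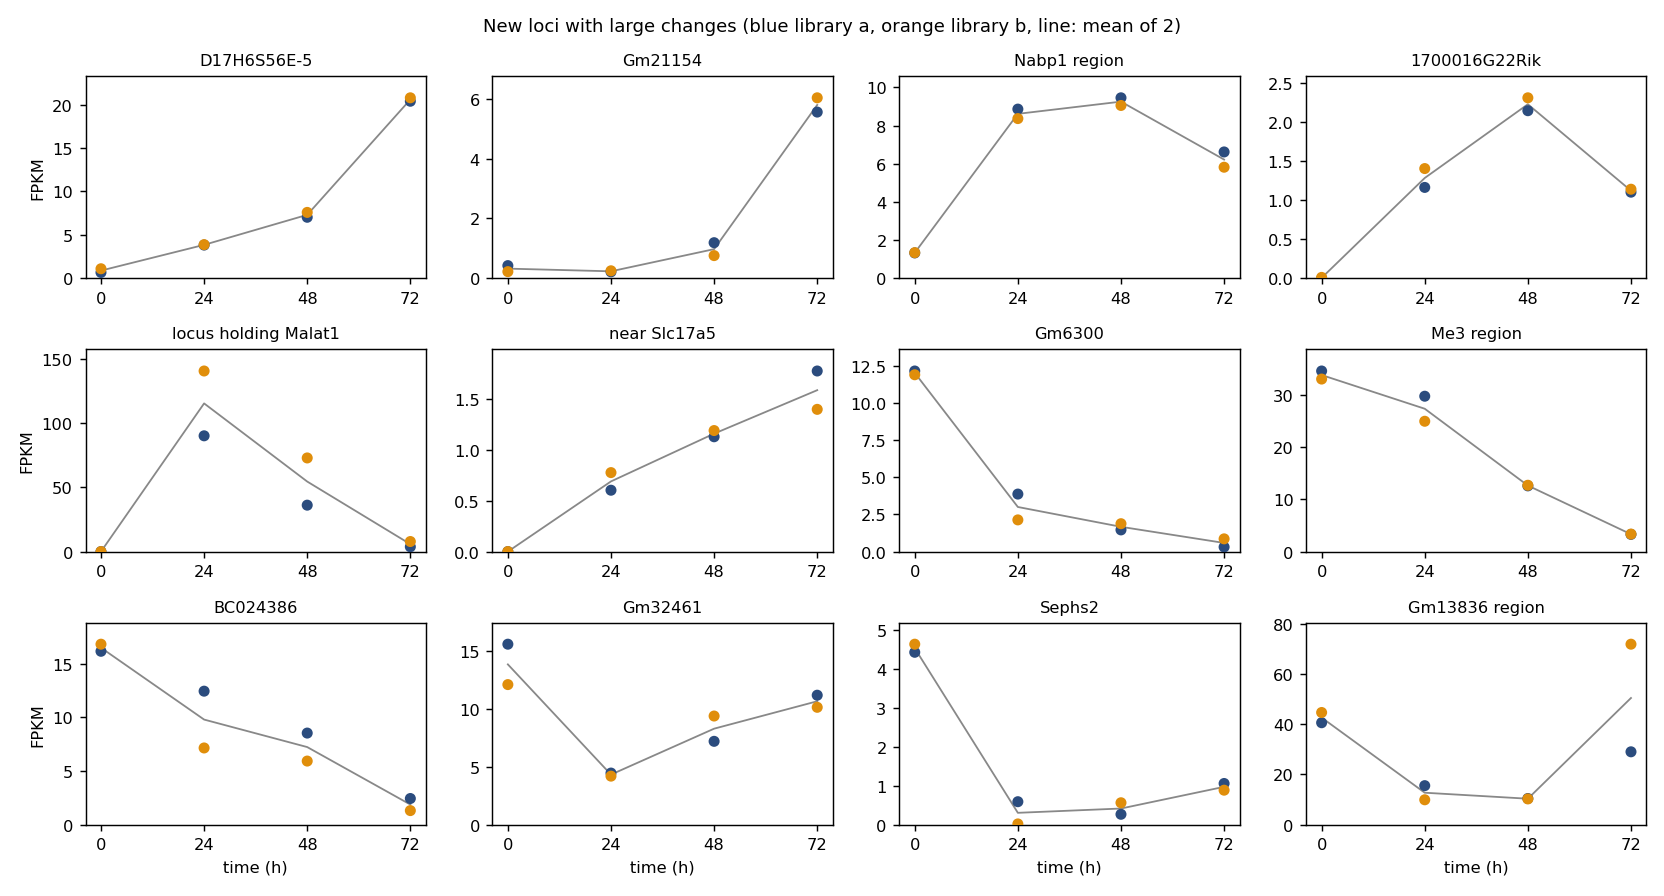
FPKM of 12 new loci with large changes, against hours, with library a in blue, library b in orange and a line through the mean of each pair; each vertical axis starts at 0 and has its own range. D17H6S56E-5 climbs to 20.4 and 20.8 FPKM at 72 h. The locus inside the Me3 row drops from 34.5 and 33.0 to 3.29 and 3.35, and the Gm13836 locus has widely spaced libraries at 72 h.

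Outside every RefSeq gene lay 440 loci, of which 15 were tested. At 24 h 9 rose and 2 fell, at 48 h 9 rose and none fell, and at 72 h 7 rose and 3 fell, with medians of 0.76, 0.77 and 0.38. The shares over all tested rows, higher and lower, were 25.8% and 40%, 28.5% and 42.1%, and 37.6% and 32.4%. Mouse_newGene_17353, Mouse_newGene_8877, Mouse_newGene_1975 and Mouse_newGene_3608, named below, were under 1 FPKM in both 0 h libraries. They were tested through injured libraries alone, so a higher level than at 0 h at some time was built in. The most abundant of the farther class was Mouse_newGene_17353 at chr9:78521014-78528439 on the plus strand, 8048 bases from Slc17a5, the lysosomal sialic acid exporter. It was listed at 0 in both 0 h libraries and held 0.605 and 0.779 FPKM at 24 h, 1.13 and 1.19 at 48 h, then 1.78 and 1.40 at 72 h. The injured groups did not overlap one another, and each passed the test against 0 h (largest adjusted p = 0.000264). Mouse_newGene_8877 at chr19:53421356-53426172 on the plus strand, 15040 bases from the lncRNA Mirt1, was highest at 48 h, with 0 and 0.0147 FPKM in the 0 h pair, 0.867 and 1.17 at 24 h, 2.03 and 1.34 at 48 h, then 0.383 and 0.144 at 72 h. It rose by 1.0 at 24 h and 1.40 at 48 h and fell from 48 to 72 h by 1.08 (adjusted p = 0.000569).

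Mouse_newGene_1975 at chr11:20114814-20125428 on the plus strand lies 1863 bases from Actr2, a subunit of the actin-nucleating Arp2/3 complex that runs the other way. It held 0.137 and 0.229 FPKM in the 0 h pair, 1.03 and 1.71 at 24 h, 2.67 and 1.72 at 48 h, then 1.46 and 0.648 at 72 h. It rose by 0.99 at 24 h and 1.42 at 48 h, where the Actr2 row changed by -0.15 and 0.15 and passed neither test, and its call at 72 h, 0.77, was lost without 0 h library a (0.0865), 0 h library b (0.0537) or 72 h library a (0.102, with a change of 0.48). Mouse_newGene_12959 at chr5:89262559-89413905 on the plus strand lies 3606 bases from Gc, the vitamin D binding protein. It held 4.06 and 4.53 FPKM in the 0 h pair, 4.36 and 3.54 at 24 h, 3.14 and 3.22 at 48 h, then 0.736 and 2.17 at 72 h, and fell by 1.17 at 72 h (adjusted p = 0.00493), or by 0.74 without 72 h library a. This locus overlaps an annotated row, in which its circRNA chr5:89380313-89389610 lies, so a fragment there could belong to either row. Mouse_newGene_12337 at chr4:96618334-96623648 on the minus strand, 3784 bases downstream of Cyp2j5, a cytochrome P450 abundant in kidney, held 1.03 and 1.26 FPKM at 0 h and 0.450 and 0.317 at 72 h, and fell by 0.63 at 72 h (adjusted p = 0.000494).

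Of the 72 divergent loci, 3 were tested. The promoter of Med26, a subunit of the Mediator complex, is printed because it holds the start of the most abundant of them within its 300 bases, and that of Spint1, a serine protease inhibitor of epithelia, because it does the same for another of the 3. They are chr8:72548261-72548560 on the minus strand and chr2:119237110-119237409 on the plus strand of GRCm38.p6, from RefSeq, running from 250 bases before to 50 bases after the annotated start. Capitals mark GGGCGG or its reverse complement CCGCCC, the GC box, searched on both strands. The divergent locus starts at base 42 of the Med26 sequence and at base 215 of the Spint1 sequence.

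Med26: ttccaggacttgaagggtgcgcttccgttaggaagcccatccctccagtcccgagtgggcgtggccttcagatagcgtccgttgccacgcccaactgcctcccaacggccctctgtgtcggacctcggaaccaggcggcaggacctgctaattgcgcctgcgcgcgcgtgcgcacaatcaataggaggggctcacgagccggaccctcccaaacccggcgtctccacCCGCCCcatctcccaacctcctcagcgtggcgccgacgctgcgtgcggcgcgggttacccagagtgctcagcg

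Spint1: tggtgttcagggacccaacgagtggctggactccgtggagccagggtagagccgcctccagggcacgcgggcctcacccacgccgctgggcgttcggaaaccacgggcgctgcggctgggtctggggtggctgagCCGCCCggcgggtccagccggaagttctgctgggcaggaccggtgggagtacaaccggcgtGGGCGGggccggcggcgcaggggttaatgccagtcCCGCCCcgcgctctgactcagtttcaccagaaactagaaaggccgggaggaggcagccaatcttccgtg

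The Med26 promoter held 1 GC box with 67.0% G and C, and that of Spint1 held 3 with 69.7%, where 35.7% of all promoters held at least 1 and the median was 52.7% G and C. The promoters of Hmga1 and Cebpa also hold the start of a divergent locus, which was not tested, and are not printed. They held 4 and 0 GC boxes, with 74.0% and 67.3% G and C. Mouse_newGene_16273, divergent from Med26 at chr8:72548519-72557717 on the plus strand, held 1.58 and 1.64 FPKM in the 0 h pair, 0.477 and 1.02 at 24 h, 1.08 and 0.957 at 48 h, then 0.866 and 1.29 at 72 h. It fell by 0.59 at 24 h (adjusted p = 0.00905), or by 0.37 without 24 h library a, where the call was lost (0.0567). The Spint1 locus was at 0.178 to 1.75 FPKM in 7 libraries and at 3.34e-07 in 48 h library b and passed no test (Mouse_newGene_10089, chr2:119235127-119237324, minus strand, chosen after its values were seen). Mouse_newGene_3608, whose start lies 748 bases from that of Eif5, a translation initiation factor, held 0.102 and 0.220 FPKM at 0 h and 0.883 to 1.6 in the injured libraries (chr12:111515801-111537353, minus strand). It rose by 0.88, 1.01 and 0.80 (SE 0.13, largest adjusted p = 0.00047).

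Some loci named by their class of place were not tested. The most abundant of the 123 loci on the opposite strand of a gene were Mouse_newGene_3177 over 2310015A10Rik, at 0.263 to 0.779 FPKM (chr12:80114838-80132952), and Mouse_newGene_4000 over Tut7, at 0.139 to 0.892 FPKM (chr13:59823168-59833233). The 2 most abundant on the unplaced scaffold, Mouse_newGene_17938 and Mouse_newGene_17931, reached at most 0.844 and 0.355 FPKM. Mouse_newGene_18102, downstream of Acot9 by 2 bases, ranged from 8.12e-05 to 1.25 FPKM (chrX:155297656-155305463).

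For 151 tested new loci the nearest annotated row was also tested, and the log2 fold changes of locus and row were compared across loci. Pearson's r was 0.17 at 24 h, 0.18 at 48 h and 0.28 at 72 h, and Spearman's rho 0.25, 0.25 and 0.30. For the 69 pairs that overlap on the same strand r was 0.16, 0.21 and 0.32, for the 31 that overlap on opposite strands 0.40, 0.30 and 0.33, for the 22 apart on the same strand 0.18, 0.02 and 0.21, and for the 29 apart on opposite strands 0.18, 0.21 and 0.22. Spearman's rho was 0.26, 0.31 and 0.42 in the same-strand overlaps and 0.39, 0.14 and -0.04 in the opposite-strand overlaps. The points share libraries and, where they overlap, may share fragments, and loci are not independent replicates. The relations were weak, and pairs with opposite courses, such as Snhg1 and its enclosing row, were among them.

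Circular RNAs, joined by a back-splice into a closed loop, gave another readout of the same libraries. Of 2163 in the deposited circRNA table, 116 lay inside a new locus, in 65 loci, and 55 of these lay outside every annotated row, in 33 loci. These 55 took 0.786% to 1.18% of the 13603 to 21024 back-splice counts of a library. Lncpint held 3 circRNAs with 37 and 47 counts in the 0 h pair, 34 and 41 at 24 h, 63 and 43 at 48 h, then 46 and 51 at 72 h. The locus over Pvt1 on chromosome 15 (Mouse_newGene_5679) held 2, and the larger, chr15:62107148-62107465, had 14 and 19 counts in the 0 h pair, 5 and 13 at 24 h, 19 and 25 at 48 h, then 45 and 45 at 72 h. C330002G04Rik held 4, with 22 and 32 counts in the 0 h pair, 20 and 34 at 24 h, 26 and 25 at 48 h, then 12 and 12 at 72 h (Mouse_newGene_9023). The Pvt1 circRNA was thus highest at 72 h and the sum over those of C330002G04Rik lowest, as counts with no test.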

How the data were processed

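RNA of proximal tubules was sequenced in 8 libraries, 2 at each of 4 times. Per the submitters' processing notes, Bowtie 0.12.2, TopHat2, Cufflinks and build mm10 were used, in no given role. FPKM values and, for circRNAs, counts were deposited by the authors, per the file headers; 8 further columns of the circRNA table were not used. Columns bear letters and the labels numbers, so a column was matched to its time only. Members were the rows whose identifier contains newGene; members and lists were chosen with earlier results of these data known.

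Loci were set against RefSeq spans of GRCm38.p6 (49997 genes, 32137 with a strand; strands agreed for 14878 of 14880 rows); all loci had a strand, so the planned class without one became genes of unlisted strand. Rows that reached 1 FPKM in 2 or more of the 8 libraries, 10757 in all, were tested with limma 3.58.1 in R 4.3.3 (trend, robust) on log2(FPKM + 1), in 1 fit of 4 groups, 2-sided, Benjamini-Hochberg over all rows, adjusted p below 0.05. This scale understates changes of low values, and an exact 0 can be a failed estimate. Depth is unknown for FPKM, so no counting interval is given. The fit was tested on simulated data. Settings of equal total FPKM without mt-Co1 and of a block on the column letters were added after seeing the data. Named loci were the 8 highest in mean FPKM, the 6 largest rises and falls with groups apart for each contrast with 0 h, 3 for successive times, 2 for each class of place, and the longest span and length; 12 more were chosen after their values were seen.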

Additional observations from a re-analysis of the deposited data

How the results depend on the processing

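No paired analysis was possible because the expression columns carry letters and not the replicate numbers of the labels, so which samples share a number is unknown. A replicate block on the letters, added after seeing the data, gave 56 and 33 loci called higher and lower at 24 h, 56 and 42 at 48 h, then 48 and 47 at 72 h, 13 and 19 from 24 to 48 h, and 17 and 42 from 48 to 72 h. The differences of a and b correlated across rows from -0.24, for 0 h with 24 h, to 0.39, for 24 h with 72 h, over the 6 pairs of times. Whether a letter marks a shared batch or pairing was not tested. Under the block on the letters, Gm13836 at 24 h (adjusted p = 0.0505) and the miR-29b-2 locus at 48 h (0.0509) were not called. Without a filter on low values, the loci called higher and lower were 170 and 118 at 24 h, 301 and 133 at 48 h, then 148 and 161 at 72 h, 80 and 33 from 24 to 48 h, and 43 and 124 from 48 to 72 h. With at least 1 FPKM in at least 4 libraries, 21, 25 and 28 were lower at 24, 48 and 72 h, 7 were higher from 24 to 48 h and 10 from 48 to 72 h. From 48 to 72 h, equal medians gave 8 and 76, and quantile normalisation 9 and 70. Quantile normalisation also gave 28 higher at 72 h, and a change of 0.29 for Ndufb1 (Mouse_newGene_3577) at 72 h, of the opposite sign. Equal totals gave 23 lower at 24 h and at 48 h, and 24 higher from 24 to 48 h. Leaving out 1 library gave 52 to 57 higher and 18 to 35 lower at 24 h, 49 to 54 and 26 to 46 at 48 h, 36 to 48 and 35 to 52 at 72 h, 9 to 14 and 10 to 20 from 24 to 48 h, and 7 to 18 and 34 to 42 from 48 to 72 h. The cause was not tested, beyond the number of rows and libraries that a setting leaves.

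Against the table's annotated rows, 372 loci lay opposite a row, 0 met one of unlisted strand, 492 lay farther and 0 were not placed. Where an overlap had to cover 50% of the locus, 642 met a gene on their own strand, 202 a gene of unlisted strand, 130 were divergent and 372 nearby. Windows of 2 kb left 37 downstream and 255 farther, and windows of 10 kb 109 farther. At 0.5 FPKM, 444 loci were detected in any group and 102 in all, with 227, 279, 274 and 207 at 0, 24, 48 and 72 h. At 2 FPKM these were 95 and 21, with 55, 56, 49 and 46. Depth is unknown, so a locus under the limit is not shown to be silent.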
